A study of Mus musculus with 6 samples.

Results

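The genes described here encode the subunits, assembly factors and activators of the mouse proteasome. They were chosen by name, as rows of the gene count table whose Ensembl identifier is protein-coding in GENCODE release M21 with a symbol of the form Psma to Psmg plus a number, and 50 of 46983 rows met this rule. RNAseq had been performed on GFP+ cells, labelled as neural crest cells (NCCs, a migratory embryonic population), sorted by flow cytometry from mouse embryos at E11.25, with 3 control and 3 BAF155/170-deficient samples. Both groups carried the Wnt1 Cre/+ driver and the Rosa26 mTmG/+ reporter, which turns GFP on in cells in which Cre has acted and in their descendants. Control embryos were BAF155 flox/+ and BAF170 flox/+, with 1 floxed and 1 wild-type copy of each gene, while deficient embryos were flox/flox at both loci. Wnt1 Cre is also active in dorsal neural stem cells that give rise to central nervous system cells, so GFP does not mark NCCs alone. BAF155 and BAF170, encoded by Smarcc1 and Smarcc2, are core subunits of the BAF chromatin remodeling complex. The comparison addressed how proteasome transcripts differ between GFP+ cells of embryos in which Cre can delete both copies of each gene and of those in which it can delete 1, and whether the inducible subunits differ from the constitutive ones.

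The proteasome is the protease that degrades ubiquitin-tagged proteins. Its core particle is a barrel of alpha and beta rings, with the protease sites on the beta subunits Psmb5, Psmb6 and Psmb7, and its regulatory cap holds an ATPase ring (Psmc genes) that unfolds substrates and non-ATPase subunits (Psmd genes) that bind ubiquitin and remove it. In immune cells, and in other cells after interferon, Psmb8, Psmb9 and Psmb10 take the places of Psmb5, Psmb6 and Psmb7 to form the immunoproteasome, and Psme1 and Psme2 form the PA28 alpha beta activator. Both are known for shaping the peptides that MHC class I presents on the cell surface, and these 5 genes are called inducible below.

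Libraries held 8191219 to 11661941 counts in controls and 12633319 to 19808620 in deficient samples, so the deficient group was the deeper one. Smarcc1 was lower in all 3 deficient samples (24.5 to 29.4 CPM, counts scaled to the normalized library size) than in controls (35.1 to 55.0 CPM), with a log2 fold change of −0.71 (SE 0.156, adjusted p = 0.0676, edgeR quasi-likelihood test with Benjamini-Hochberg adjustment). Smarcc2 was at 82.3 to 86.8 against 89.9 to 92.9 CPM (log2 fold change −0.11, adjusted p = 0.251, edgeR), a gene-level count that does not separate floxed exons from the rest. The labelled cell type was checked against its markers. The 15 neural crest markers summed to 84.9 to 149.7 CPM in controls and 40.7 to 67.3 CPM in deficient samples, and the 12 macrophage markers, led by Ctss and Lyz2, to 11234 to 13058 and 13146 to 14330 CPM. All 14 neural crest markers tested were lower in deficient samples (9 at an adjusted p of at most 0.1 by edgeR, median log2 fold change −1.18), and all 12 macrophage markers were higher (none at that threshold, 8 at an unadjusted p under 0.05, median 0.19). Of all genes tested, 7.75% were called lower and 4.18% higher at that threshold. At an unadjusted p under 0.05 (edgeR) were 27.3% of all genes and 32.3% of those with a mean of at least 10 CPM. In every library the macrophage markers thus summed far above the neural crest markers, which goes against the label, and the samples are called sorted GFP+ samples here. Markers of T and NK cells summed to 5.11 to 6.65 and 5.44 to 5.87 CPM, with Cd3e at 6 counts and Cd3g at 5 counts over all 6 libraries. In bulk samples, a smaller share of cells of a type and less RNA per cell cannot be told apart. The proteasome values below were read in these mixtures, and the part of cell composition in them was not tested.

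Proteasome genes took 0.453% to 0.574% of all counts in controls and 0.565% to 0.629% in deficient samples. All 31 constitutive core subunits were detected in every library. Levels were compared between genes per kb of annotated exon. Among core subunits the control mean ran from 8.54 CPM per kb for Psma3 to 205 for Psmb6, the caspase-like site subunit. Of the inducible genes, Psmb10 was above this range at 210, and the others lay within it, with Psme1 at 146, Psmb8 at 93.3, Psme2 at 90.0 and Psmb9 at 61.6 CPM per kb. Psmb9, Psmb8, Psmb10, Psme1 and Psme2 together made up 26.0% to 27.7% of the proteasome CPM in controls and 26.7% to 28.0% in deficient samples, ranges that overlapped. The highest level of all, 516 CPM per kb, was that of Psme2b, a single-exon retrogene whose counts are taken up with those of Psme2 below. Psme2b is in the proteasome total but not among the inducible genes, so their share depends on how reads were split between Psme2 and Psme2b. The assembly factors Psmg1, Psmg2 and Psmg3 were at 1.71 to 3.00 CPM per kb. Psma8, the testis form of an alpha subunit, and Psmb11, the thymic cortex form of the Psmb5 position, had 27 and 8 counts over all 6 libraries and were not tested.

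**Figure D1:**
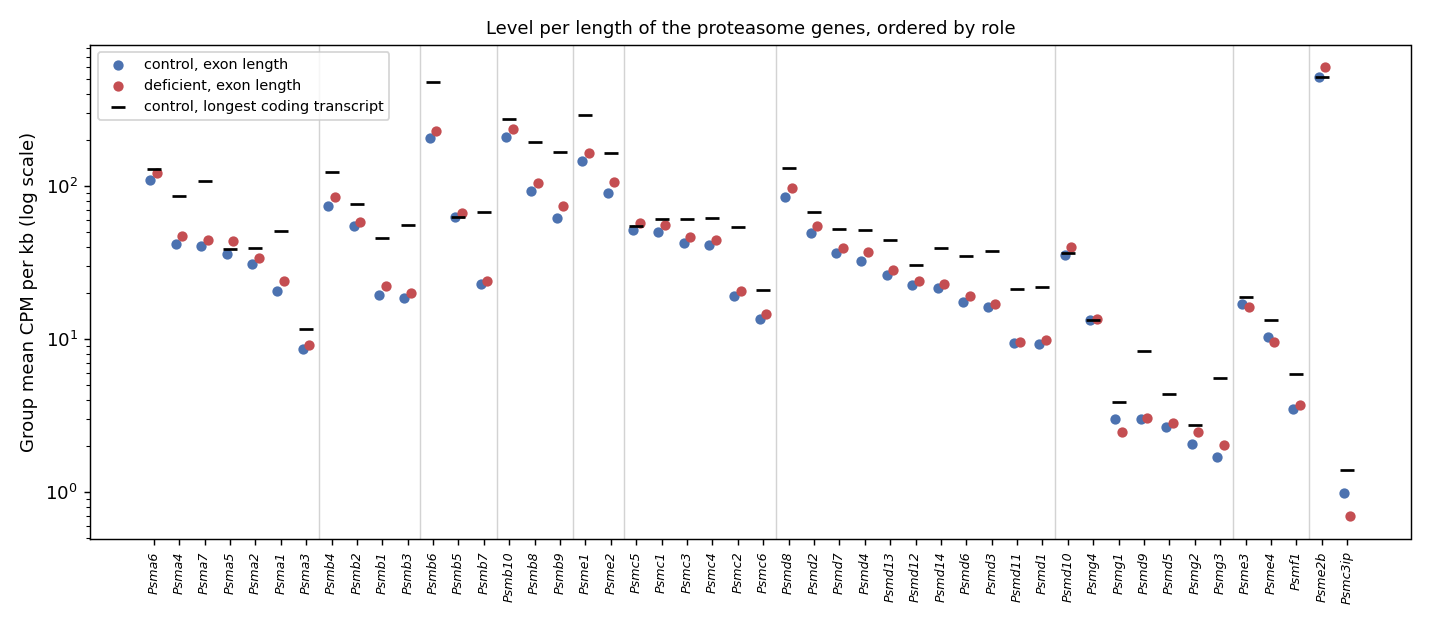
Group mean level of the 48 tested proteasome genes in CPM per kb (log axis), in role order from alpha ring to retrogene with vertical lines between roles; blue and red points use exon length for the 3 control and 3 deficient samples, black bars use the longest coding transcript for controls. Psmb10 and Psmb6 (210 and 205 CPM per kb by exon length) stand far above Psmb7 and Psma3.

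The annotated exon length changes these levels. With the longest protein-coding transcript in place of all exons, a choice made after the data were seen, Psmb6 was at 481, Psme1 at 289, Psmb10 at 274, Psmb8 at 194, Psmb9 at 167 and Psme2 at 165 CPM per kb in controls. For the pairs of subunits that compete for 1 position in the beta ring, the control ratio of levels per length was 1.49 for Psmb8 over Psmb5 by exon length and 3.10 by transcript length. It was 9.15 and 4.03 for Psmb10 over Psmb7. Psmb9 was the only one of the 3 below its partner on both scales, at 0.301 and 0.347 of the level of Psmb6. Transcripts of the inducible and the constitutive form were thus both present for each position in these sorted samples.

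Psmb9 and Psmb8 lie beside the peptide transporter genes within the MHC region of chromosome 17, in the order Psmb9 (chr17:34181987-34187764, minus strand), Tap1 (chr17:34187553-34197225, plus), Psmb8 (chr17:34197721-34201454, plus) and Tap2 (chr17:34203527-34216321, plus; GRCm38, GENCODE M21). Psmb9 and Tap1 are read in opposite directions. In GENCODE M21 their annotated exons overlap by 212 bases, while the RefSeq start sites have 225 bases between them. The RefSeq promoter of Psmb9 (GRCm38.p6, chr17:34187281-34187580, minus strand, 250 bases before the start and 50 from it) is shown because it holds both RefSeq starts; capitals mark the 225 bases between them.
Psmb9: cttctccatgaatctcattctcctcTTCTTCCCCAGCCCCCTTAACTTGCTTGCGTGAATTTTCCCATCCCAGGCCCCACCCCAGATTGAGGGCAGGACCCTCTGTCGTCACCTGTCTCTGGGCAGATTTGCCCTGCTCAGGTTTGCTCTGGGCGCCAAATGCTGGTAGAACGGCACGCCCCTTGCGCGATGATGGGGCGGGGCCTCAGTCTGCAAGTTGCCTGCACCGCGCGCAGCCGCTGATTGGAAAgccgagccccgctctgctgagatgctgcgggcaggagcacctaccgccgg

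Promoters were searched on both strands for the form of an interferon-stimulated response element (GAAA, any 2 bases, GAAA), TTCNNNGAA, the palindromic form bound by STAT factors, and TGACNNNGC, the core of the antioxidant response element used by Nfe2l1 and Nfe2l2. Promoters were found for 42 of the 50 proteasome genes. Of the 5 inducible genes, Psmb8 held TTCNNNGAA, Psme1 held the interferon form, and Psmb9, Psmb10 and Psme2 held none of the 3. Among the constitutive partners Psmb5 and Psmb6 held TGACNNNGC, and Psmb7 had no entry. The 4 promoters with a match are shown so that inducible and constitutive genes can be read side by side, with the matched bases in capitals and no match overlapping another (GRCm38.p6: Psmb8 chr17:34197945-34198244 plus, Psme1 chr14:55578244-55578543 plus, Psmb5 chr14:54617946-54618245 minus, Psmb6 chr11:70525107-70525406 plus).
Psmb8: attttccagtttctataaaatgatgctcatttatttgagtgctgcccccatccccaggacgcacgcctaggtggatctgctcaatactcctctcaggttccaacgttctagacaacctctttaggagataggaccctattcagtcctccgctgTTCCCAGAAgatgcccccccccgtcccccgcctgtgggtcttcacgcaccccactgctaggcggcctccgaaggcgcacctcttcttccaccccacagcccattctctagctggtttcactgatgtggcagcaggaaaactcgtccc
Psme1: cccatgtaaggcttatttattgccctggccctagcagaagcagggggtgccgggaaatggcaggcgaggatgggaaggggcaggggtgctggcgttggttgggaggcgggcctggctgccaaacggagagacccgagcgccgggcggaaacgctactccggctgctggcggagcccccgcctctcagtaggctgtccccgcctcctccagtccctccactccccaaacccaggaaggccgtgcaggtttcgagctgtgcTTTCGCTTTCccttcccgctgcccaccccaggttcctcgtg
Psmb5: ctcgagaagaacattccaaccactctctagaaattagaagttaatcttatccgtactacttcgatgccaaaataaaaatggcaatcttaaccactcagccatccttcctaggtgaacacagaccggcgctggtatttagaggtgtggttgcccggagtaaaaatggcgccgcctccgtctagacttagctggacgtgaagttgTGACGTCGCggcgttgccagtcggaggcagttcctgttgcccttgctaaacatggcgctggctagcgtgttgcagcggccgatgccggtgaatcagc
Psmb6: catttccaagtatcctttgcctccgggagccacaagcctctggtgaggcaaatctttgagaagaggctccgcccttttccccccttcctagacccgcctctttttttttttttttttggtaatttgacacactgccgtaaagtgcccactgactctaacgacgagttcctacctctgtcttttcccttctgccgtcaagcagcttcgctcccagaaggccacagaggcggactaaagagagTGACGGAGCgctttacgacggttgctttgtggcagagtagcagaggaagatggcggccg
Over all 32851 promoters of the table, 3.44% held the interferon form, 8.30% held TTCNNNGAA and 12.4% held TGACNNNGC. Over the 45 promoters of the 42 proteasome genes these shares were 11.1% (Psmb3, Psmd4, Psmd9, Psme1 and Psmg4), 6.67% (Psmb8, Psmd2 and Psmg1) and 13.3% (Psmb5, Psmb6, Psmc6, Psmd12, Psmd9 and Psme4). A match is a description of the letters and not a shown binding site.

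The 5 inducible genes were all higher in the mean of the deficient samples, by 12.5% to 19.1%, and 1 of them, Psmb9, passed an adjusted p of 0.1, the threshold at which 4.18% of all genes tested were called higher. Psmb8, which replaces Psmb5, was at 306, 279 and 361 CPM in control samples 1 to 3 and at 321, 382 and 364 CPM in deficient samples 1 to 3. The groups overlapped because the third control was high and the first deficient sample low, and the log2 fold change was 0.17 (SE 0.0985, adjusted p = 0.290, edgeR quasi-likelihood with Benjamini-Hochberg adjustment). Psmb9, which replaces Psmb6, was at 220, 208 and 249 CPM in controls and at 255, 271 and 281 CPM in deficient samples. Every deficient sample was above every control, with a log2 fold change of 0.25 (SE 0.0727, adjusted p = 0.0828, edgeR). Psmb10, which replaces Psmb7, was at 350, 339 and 386 CPM against 389, 397 and 425 CPM, groups that also stood apart (log2 fold change 0.17, SE 0.067, adjusted p = 0.133, edgeR). Psmb9 no longer passed when control 1, control 2, deficient sample 2 or deficient sample 3 was left out (adjusted p = 0.164 to 0.277, edgeR), with library totals in place of TMM factors (adjusted p = 0.182, edgeR) or when genes under a mean of 2 CPM were left out (adjusted p = 0.101, edgeR). Across all alternatives run its adjusted p (edgeR, DESeq2 or limma) was between 0.00613 and 0.277, with the same direction.

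Psme1, the alpha subunit of PA28, was at 312, 305 and 348 CPM in controls and at 350, 369 and 369 CPM in deficient samples. The groups did not overlap, and the log2 fold change was 0.17 (SE 0.0648, adjusted p = 0.120, edgeR). Psme2, the beta subunit, was at 141, 158 and 177 CPM against 176, 189 and 195 CPM, so that the third control and the first deficient sample touched (log2 fold change 0.23, SE 0.0813, adjusted p = 0.107, edgeR). In all 5 inducible genes the third control was the highest control, and in 4 of them, all but Psme2, the second control was the lowest. The summed macrophage markers had the same order of controls, coming to 11970, 11234 and 13058 CPM in controls 1 to 3 and 13146, 13716 and 14330 CPM in deficient samples 1 to 3. This order was not particular to them. The summed core subunits came to 3028, 2991 and 3234 CPM in controls 1 to 3, and the summed endothelial and neutrophil markers were also lowest in the second control and highest in the third.

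**Figure D2:**
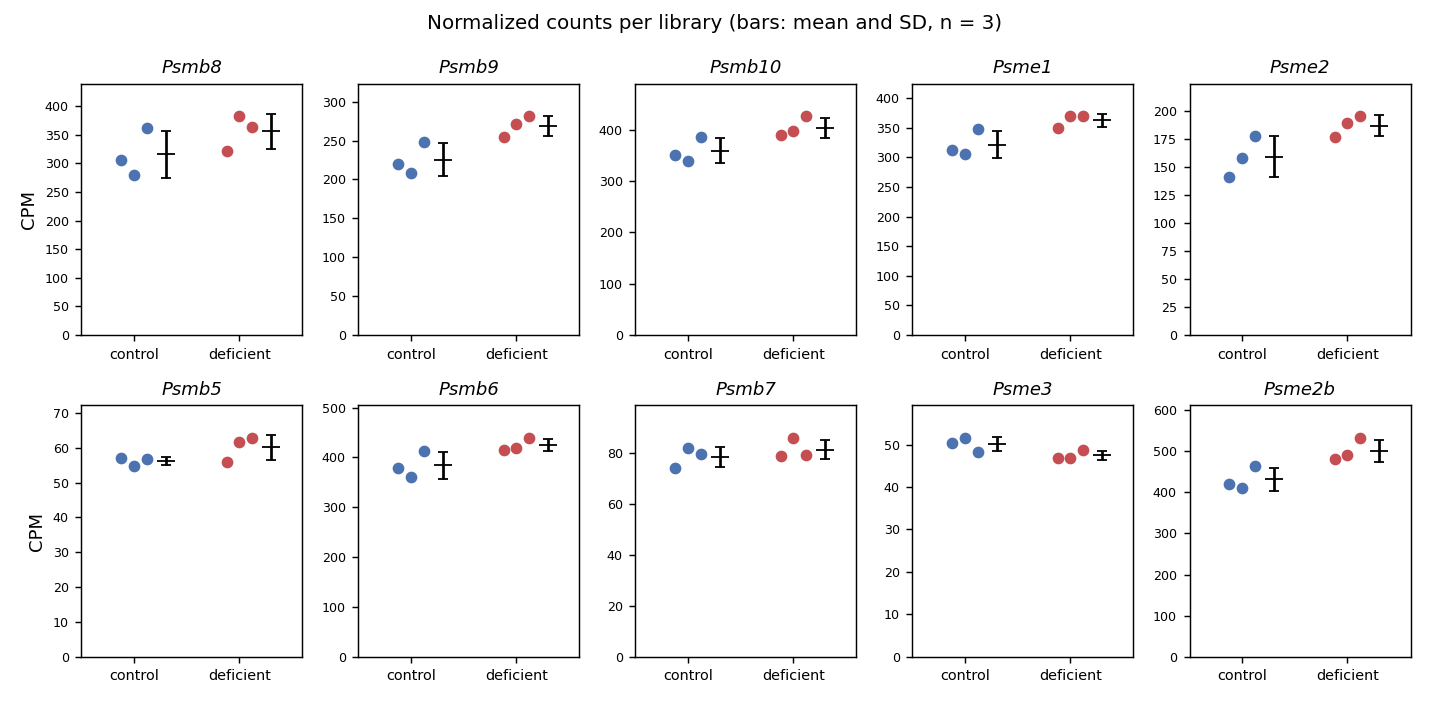
CPM in each library for the inducible genes (upper row) and their constitutive partners (lower row, with Psme2b under Psme2); points are samples 1 to 3 of a group from left to right, and bars give the mean and SD (n = 3). Every deficient sample lies above every control for Psmb9, Psmb10, Psme1, Psmb6 and Psme2b, while Psmb5, Psmb7 and Psme3 overlap.

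Their constitutive partners differed by smaller amounts, none past an adjusted p of 0.1. Psmb5, with the chymotrypsin-like site, was at 56.9, 54.7 and 56.7 CPM in controls and 55.9, 61.5 and 62.7 CPM in deficient samples (log2 fold change 0.10, adjusted p = 0.376, edgeR). Psmb6 was at 378, 360 and 414 CPM against 415, 420 and 439 CPM, groups that did not overlap (log2 fold change 0.14, adjusted p = 0.178, edgeR). Psmb7, with the trypsin-like site, was at 74.3, 82.0 and 79.7 CPM against 79.0, 86.0 and 79.5 CPM, ranges that overlapped in part (log2 fold change 0.05, adjusted p = 0.651, edgeR). Psme3, which forms the nuclear PA28 gamma activator and is not part of the interferon-induced set, was at 50.4, 51.5 and 48.3 CPM against 46.9, 46.9 and 48.8 CPM (log2 fold change −0.07, 95% interval −0.22 to 0.07, adjusted p = 0.504, edgeR).

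Because a ratio of 2 genes within a library does not depend on library scaling, each inducible gene was set against its partner. The log2 ratio of Psmb9 to Psmb6 was −0.78, −0.79 and −0.74 in controls and −0.70, −0.63 and −0.64 in deficient samples, a mean difference of 0.11 with no overlap. That of Psme1 to Psme3 was 2.62, 2.56 and 2.84 against 2.89, 2.97 and 2.92 (difference 0.25), and that of Psme2 to Psme3 was 1.48, 1.61 and 1.87 against 1.91, 2.01 and 1.99 (difference 0.31), both without overlap. Each of these 3 ratios reached the exact two-sided permutation p of 0.1, the smallest that 3 against 3 samples allow, and 0.167 after Benjamini-Hochberg adjustment over the 5 pairs. Psmb8 to Psmb5 differed by 0.08 (exact permutation p = 0.5) and Psmb10 to Psmb7 by 0.12 (exact permutation p = 0.4), with overlapping groups. Set against the mean log2 level of the 31 core subunits instead, the 5 inducible genes differed by 0.04 to 0.13 with overlap in each (exact permutation p = 0.2 to 0.7). The differences of PA28 alpha and beta to Psme3, 0.25 and 0.31, were therefore 0.05 and 0.11 to the core subunits, Psme3 being one of 4 tested proteasome genes with a negative fold change. The ratio of Psmb8 to Psmb5 rested on single controls: its difference was 0.01 without the second control and 0.17 without the third.

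**Figure D3:**
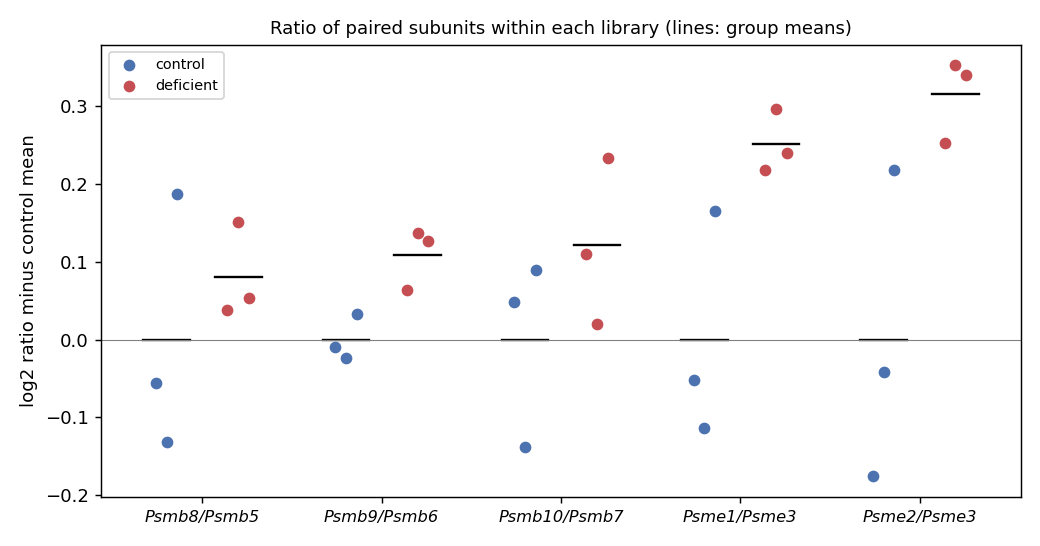
Log2 ratio of each inducible gene to its constitutive partner in each library, minus the mean of the 3 controls; points are samples 1 to 3 of each group from left to right and lines are group means. The groups are apart for Psmb9/Psmb6, Psme1/Psme3 and Psme2/Psme3 and overlap for Psmb8/Psmb5 and Psmb10/Psmb7.

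All 31 constitutive core subunits had a fold change above 0, between 0.02 and 0.28 on the log2 scale, with a median of 0.12. The direction of Psmd11, at 0.02, turned to −0.0055 when genes under a mean of 2 CPM were left out. An adjusted p of at most 0.1 was reached by 3 of them, all higher, against 4.18% of all genes tested and 7.81% of those with a mean of at least 10 CPM. Deficient samples were all above the controls in 17 of 31, against 15.0% of all genes and 25.4% of those with a mean of at least 10 CPM. In the alpha ring, the gate of the barrel, log2 fold changes ran from 0.09 (Psma3) to 0.28 (Psma5), and Psma5 passed the threshold. Psma5 was at 45.9, 48.2 and 49.0 CPM in controls and at 59.1, 51.5 and 63.0 CPM in deficient samples, apart from each other (SE 0.0827, adjusted p = 0.0862, edgeR). In the beta ring, the non-catalytic subunits ran from 0.08 (Psmb2) to 0.20 (Psmb4). Psmb4 was at 140, 146 and 149 CPM against 161, 167 and 170 CPM, with a narrow spread in both groups (SE 0.0564, adjusted p = 0.0828, edgeR).

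The cap showed values of the same size. The ATPase subunits Psmc1 to Psmc6 lay between 0.10 (Psmc4) and 0.16 (Psmc5) with none past the threshold (adjusted p = 0.171 to 0.390, edgeR). Of these 6, 2 were at an unadjusted p under 0.05 (edgeR), near the 27.3% of all genes tested. Deficient samples were all above the controls in 4 of 6, against 15.0% of all genes and 25.4% of those with a mean of at least 10 CPM. The 11 non-ATPase subunits lay between 0.02 (Psmd11, a scaffold subunit) and 0.19 (Psmd4, a ubiquitin receptor). Psmd4 was at 88.9, 88.6 and 93.1 CPM in controls and at 103, 106 and 101 CPM in deficient samples, which lay clear of each other (log2 fold change 0.19, SE 0.0574, adjusted p = 0.0862, edgeR). Psmd14, the deubiquitinase of the lid, was at 58.5 to 62.0 CPM against 63.4 to 66.7 CPM, and its log2 fold change of 0.10 did not pass (adjusted p = 0.334, edgeR).

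Genes that act on the particle without being part of it were mostly at low levels per length, and their fold changes varied more. The 7 assembly chaperones, Psmd5, Psmd9, Psmd10 and Psmg1 to Psmg4, ran from −0.30 (Psmg1) to 0.28 (Psmg2), all with overlapping groups and none past the threshold (adjusted p = 0.222 to 0.915, edgeR; none at an unadjusted p under 0.05). Psmg1 was at 4.04, 3.48 and 4.60 CPM against 3.84, 2.75 and 3.32 CPM, and Psmg2 at 4.25, 3.21 and 3.20 CPM against 4.07, 4.58 and 4.27 CPM, levels at which the 95% intervals spanned −0.84 to 0.23 and −0.23 to 0.78. The nuclear activator Psme4 (PA200) had a log2 fold change of −0.09, which was 0.062 after a correction for exon length, and the inhibitor Psmf1 (PI31) one of 0.08, which turned to −0.039 without the first control. Neither they nor Psme3 passed (adjusted p = 0.426 to 0.691, edgeR). Psmc3ip, which met the naming rule but is a meiotic recombination factor and no proteasome subunit, was at 0.902 to 3.08 CPM with a log2 fold change of −0.48 (SE 0.47), which became 0.10 without the second control.

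Psme2b (chr11:48945354-48946190, minus strand, GRCm38) is a processed copy of Psme2 (chr14:55587441-55591113, minus strand). Its transcript aligned to that of Psme2 over 794 bases with 5 differences (99.37% identity) and a run of 341 bases without one, and none of the 5 differences changed the encoded residue. The coding stretch of 256 bases that holds all 5 is shown, with the differing bases in capitals, because the rest of the aligned part is identical (GENCODE M21 transcripts; bases 498 to 753 of Psme2-208 and 372 to 627 of Psme2b-201).
Psme2: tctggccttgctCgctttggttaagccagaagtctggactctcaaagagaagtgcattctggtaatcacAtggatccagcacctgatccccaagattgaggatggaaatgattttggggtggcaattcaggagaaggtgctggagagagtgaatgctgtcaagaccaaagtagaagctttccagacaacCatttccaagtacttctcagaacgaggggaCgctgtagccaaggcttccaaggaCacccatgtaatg
Psme2b: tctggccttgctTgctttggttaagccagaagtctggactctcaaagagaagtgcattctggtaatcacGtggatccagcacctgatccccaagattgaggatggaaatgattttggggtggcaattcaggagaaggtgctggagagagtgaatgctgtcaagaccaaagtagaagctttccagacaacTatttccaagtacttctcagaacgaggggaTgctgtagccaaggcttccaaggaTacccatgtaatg
Psme2b was at 421, 411 and 464 CPM in controls and at 481, 489 and 531 CPM in deficient samples (log2 fold change 0.21, SE 0.0677, adjusted p = 0.0938, edgeR). The separate levels of Psme2 and Psme2b are uncertain, since how reads that map to both were counted is not given in the sources used here. Summed as 1 gene, an alternative added after the data were seen, they were at 562, 569 and 641 CPM against 657, 678 and 726 CPM, without overlap, and the sum had a log2 fold change of 0.22 (SE 0.0703, adjusted p = 0.0949, edgeR). The summed PA28 beta transcript thus passed the threshold that Psme2 alone, at 0.107, did not.

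**Figure D4:**
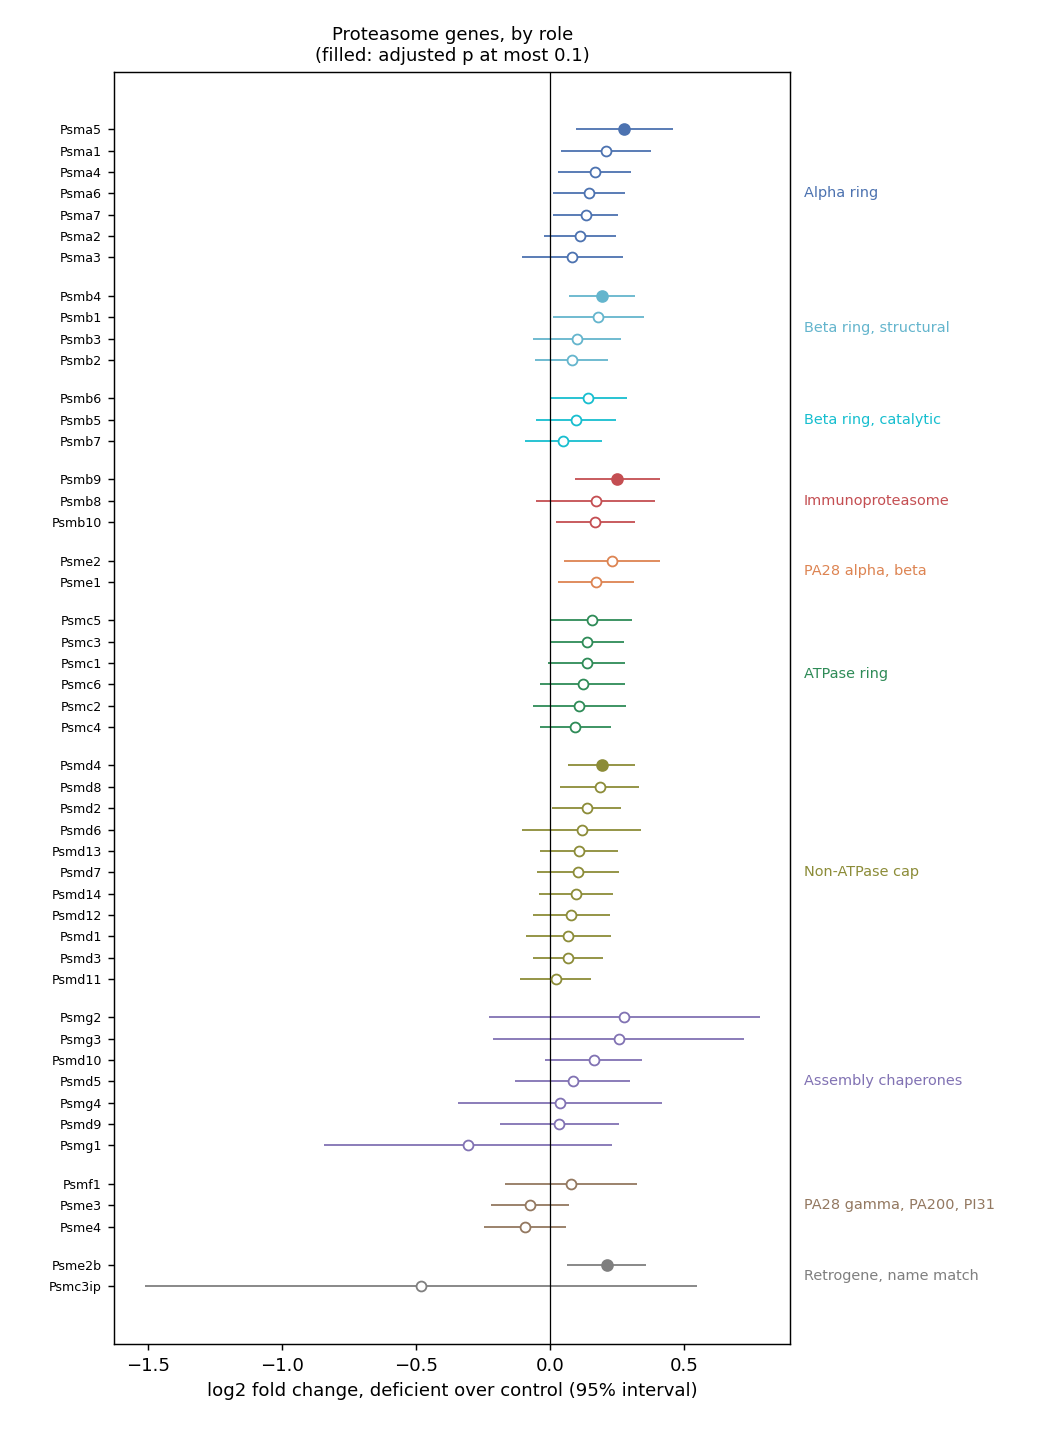
Log2 fold change of deficient over control samples (edgeR) for the 48 tested proteasome genes, grouped by role, with 95% intervals; filled points have an adjusted p of at most 0.1. The 5 filled points, Psma5, Psmb4, Psmb9, Psmd4 and Psme2b, lie between 0.19 and 0.28, and the low-count genes Psmg1, Psmg2, Psmg3 and Psmc3ip have the widest intervals.

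Over the whole set, 44 of 48 tested proteasome genes (91.7%) had a fold change above 0 (Psme4 and Psmg4 changed sides with length-corrected offsets), against 47.7% of all 13961 genes tested, with a median log2 fold change of 0.12 against −0.02. An adjusted p of at most 0.1 was reached by 5 (10.4%; Psma5, Psmb4, Psmb9, Psmd4 and Psme2b), all higher, against 4.18% of all genes called higher and 7.75% called lower. Deficient samples were all above controls in 21 (43.8%), against 15.0% of all genes, and all below controls in none, against 16.4%. Proteasome genes are abundant, and abundant genes as a whole leaned the same way. Among the 7361 genes with a mean of at least 10 CPM, 64.2% had a fold change above 0, 7.81% were called higher and 25.4% stood apart upward, with a median of 0.07. The 43 proteasome genes of that level had 41 above 0 (95.3%), 5 called (11.6%) and 21 apart (48.8%), with a median of 0.12. The study's further thresholds were an absolute log2 fold change of 0.58 and a mean of 2 CPM. With them none was called by edgeR, against 0.0573% of all genes called higher and 4.88% lower. The study used limma and reported more genes in both directions at these thresholds. Of the 48, 18 were at an unadjusted p under 0.05 (edgeR), with log2 fold changes of at most 0.28. That last count lay close to the background, since 27.3% of all genes and 32.3% of those with a mean of at least 10 CPM were at an unadjusted p under 0.05 (edgeR), the latter against 18 of 43 proteasome genes. The count of 5 depended on the settings: it was 9 with DESeq2, 0 with library totals in place of TMM factors, 0 when genes under a mean of 2 CPM were left out, 22 without the third control and 0 without the first control, the second control or the third deficient sample. Calls over all genes in either direction moved with it, from 1665 of 13961 as reported to 3745 of 14430 without the third control, 0 of 14318 without the first, 73 of 14305 without the second and 19 of 14280 without the third deficient sample, so these counts are not particular to the proteasome genes. All-gene calls were 2072 of 13961 with DESeq2, 1082 of 13961 with library totals and 866 of 11787 when genes under a mean of 2 CPM were left out.

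The median log2 fold change was 0.17 for the 5 inducible genes and 0.12 for the 31 core subunits, a gap of 0.05. The ranges, 0.17 to 0.25 and 0.02 to 0.28, lay one inside the other, and the second largest single value of a core subunit, 0.21 for Psma1, was above 3 of the 5 inducible genes. Without the third control the medians were 0.28 and 0.16, and without the second 0.14 and 0.10, so the gap ran from 0.04 to 0.12 over the libraries left out in turn.

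Genes of antigen processing and presentation, with both MHC class I and class II genes among them, had values close to those of the inducible subunits. All 23 tested genes of MHC peptide loading and transport were higher, 8 of them at an adjusted p of at most 0.1, with a median log2 fold change of 0.21. Over all genes tested, 47.7% had a fold change above 0 and 4.18% were called higher. Among genes with a mean of at least 10 CPM these shares were 64.2% and 7.81%. Tap1, the transporter gene that starts beside Psmb9, was at 832, 800 and 929 CPM in controls and at 964, 987 and 1042 CPM in deficient samples, the same order of libraries as Psmb9 (log2 fold change 0.23, SE 0.0707, adjusted p = 0.0926, edgeR). This order was not particular to the pair, since Psmb10, the summed core subunits and the summed macrophage markers had it too. The other antigen-processing genes that passed were the peptide-trimming enzyme Erap1 (0.21) and the MHC class I genes H2-M3 (0.25), H2-Q7 (0.24), H2-Q6 (0.23), H2-T22 (0.23), H2-T23 (0.22) and H2-Q4 (0.22), of which the near-identical H2-Q and H2-T genes may share reads. MHC class II genes and Cd74, which are largely restricted to antigen-presenting cells, were counted at high level in both groups, with Cd74 at 1294 to 1462 CPM in controls and 1508 to 1646 CPM in deficient samples.

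Of the 14 interferon pathway genes, all had fold changes above 0 and 5 passed, namely the receptor chain Ifnar2 (0.23), the kinases Jak1 (0.22) and Jak2 (0.20) and the transcription factors Stat2 (0.22) and Irf1 (0.21), with a list median of 0.20. Beside them, 47.7% of all genes tested were above 0 and 4.18% were called higher, and 64.2% and 7.81% of genes with a mean of at least 10 CPM. Ifng, the interferon that induces the immunoproteasome, was counted at 3.08, 1.61 and 4.84 CPM against 4.15, 5.25 and 4.65 CPM, groups that overlapped (log2 fold change 0.52, SE 0.324, adjusted p = 0.325, edgeR). In contrast, the 21 tested genes listed as proteasome factors, mostly genes that regulate or assist the proteasome, split into 14 above and 7 below 0, with a median of 0.08. The list also holds cap subunits outside the naming rule, Adrm1 at 0.30 (adjusted p = 0.108, edgeR) and Sem1 at 0.01 (adjusted p = 0.945, edgeR). An adjusted p of at most 0.1 was reached by 1 of the 21 in each direction (4.76%), near the 4.18% of all genes called higher and below the 7.75% called lower. Nfe2l2, a transcription factor of stress-induced proteasome genes, was at 178, 177 and 198 CPM against 212, 218 and 222 CPM and rose (log2 fold change 0.24, SE 0.062, adjusted p = 0.0763, edgeR). Ddi2, the protease that activates its relative Nfe2l1, was at 25.1, 22.3 and 20.4 CPM against 18.0, 17.8 and 18.2 CPM and fell (log2 fold change −0.32, SE 0.104, adjusted p = 0.0940, edgeR). Nfe2l1 itself had a log2 fold change of 0.11 (adjusted p = 0.273, edgeR), and the maturation factor Pomp one of 0.15 (adjusted p = 0.147, edgeR). The 12 macrophage markers, at 0.15 to 0.25 with a median of 0.19, covered nearly the same range as the 5 inducible proteasome genes, and the neural crest markers lay between −2.26 and −0.77. How much of the inducible subunits' values moved with macrophage RNA was not tested.

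**Figure D5:**
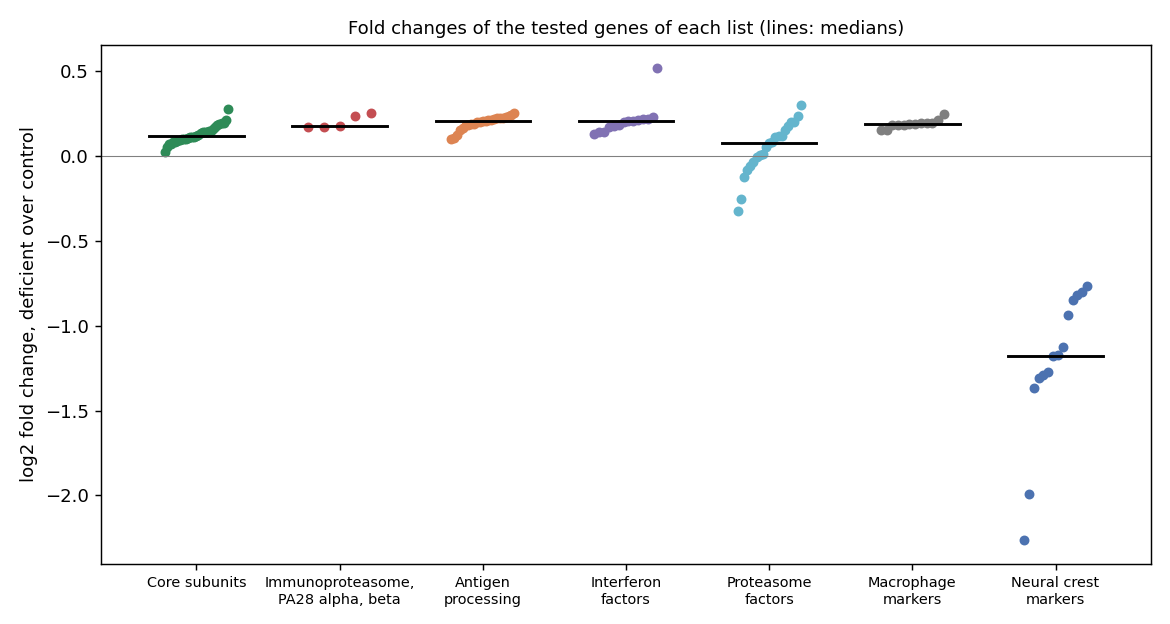
Log2 fold change of deficient over control samples for each tested gene of 7 lists, sorted within a list, with black lines at the medians. The inducible, antigen-processing, interferon and macrophage lists have medians of 0.17 to 0.21, the core subunits 0.12, the proteasome factors 0.08 and the neural crest markers −1.18.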

How the data were processed

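The authors deposited raw counts per gene for the 6 samples, with no normalization. According to the study's methods, paired-end reads of strand-specific poly(A) libraries were aligned to GRCm38 with STAR and counted with featureCounts, and the submitters' processing notes also name cutadapt 1.18 and FastQC 0.11.7. The annotation release, strand setting and treatment of multimapping reads are not given in the sources used here. Identifiers were matched to GENCODE M21 without version suffix, and the 495 unnamed of 46983 rows held 0.0558% to 0.0706% of counts.

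Counts were filtered with filterByExpr (minimum count 10, total 15), normalized by TMM and fitted with condition only in edgeR 4.0.16 (R 4.3.3, robust quasi-likelihood test, prior count 2), with Benjamini-Hochberg adjustment over 13961 genes and a common biological coefficient of variation of 12.8%. Calls used the study's thresholds (adjusted p of at most 0.1, absolute log2 fold change of at least 0.58, mean of at least 2 CPM), and an adjusted p of at most 0.1 alone is given beside them. Log2 ratios within libraries were compared by exact two-sided permutation tests. Alternatives used DESeq2 1.42.0, limma-voom (limma 3.58.1), other scalings and filters, offsets corrected for exon length (lowess span 0.3), a replicate block and each library left out. The pipeline was tested on simulated data. Promoters came from RefSeq, and sequences were aligned with Biopython. Embryos behind the samples are not identified in the labels, so p-values measure the spread between these samples. Proteasome genes and lists were chosen with earlier results of these data known. Named are the 5 inducible genes, their 4 partners, proteasome genes with an adjusted p of at most 0.1, the extremes of each role, and pathway genes with an adjusted p of at most 0.1. Psmd14, Psma1, Ifng, Nfe2l1, Pomp, Adrm1, Sem1, Cd74, Ctss and Lyz2 were named after their values were seen. The symbol Paaf1 of the proteasome factors was not matched, and Foxd3 was not tested. Markers of neutrophils summed to 17.0 to 22.0 CPM in controls and 23.8 to 27.5 in deficient samples, those of endothelium to 173 to 194 and 198 to 211, and those of erythroid cells to 10.9 to 51.0 and 4.40 to 8.77.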

Additional observations from a re-analysis of the deposited data

How the results depend on the processing

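No proteasome gene was called with all thresholds of the study, and none had an adjusted p of at most 0.1 with a fall, under any alternative run. The count with an adjusted p of at most 0.1 and a rise, 5 as reported, was 9 with DESeq2, 13 without a filter on low counts, 1 (Psmb9) with length-corrected offsets, and 0 with library totals (6 at an unadjusted p under 0.05, edgeR), with a minimum mean of 2 CPM (11 at an unadjusted p under 0.05, edgeR) or at an adjusted p of at most 0.05 (18 at an unadjusted p under 0.05, edgeR). It ranged from 0 to 22 with each library left out, with 0 without the first or second control or the third deficient sample (5, 8 and 5 at an unadjusted p under 0.05, edgeR), where 0, 73 and 19 genes in all passed in either direction, 1 without the second deficient sample (414 in all) and 22 without the third control (3745 in all). With a replicate block the count was 17, where 3664 of 13961 genes in all passed in either direction. The counts in all were 1665 of 13961 as reported, 2072 of 13961 with DESeq2 and 3096 of 32523 without a filter on low counts. They were 1832 of 13961 with length-corrected offsets, 1082 of 13961 with library totals and 866 of 11787 with a minimum mean of 2 CPM. Deviations of samples with the same number correlated at 0.03, −0.03 and 0.29, and those with unlike numbers at −0.30 to 0.26, so these values could not settle a pairing. The replicate numbers in the titles of the deficient samples differ from those in their descriptions, and the numbers were not taken to pair the samples. The median log2 fold change kept its sign under every alternative run, between 0.14 and 0.28 for the inducible genes and 0.09 and 0.18 for the core subunits. The direction turned for Psmd11 (−0.0055, a minimum mean of 2 CPM), for Psme4 (0.062) and Psmg4 (−0.042) with length-corrected offsets, and with a library left out for Psmf1 (−0.039 to 0.15 over the 6 libraries), Psmd9 (−0.021 to 0.094), Psmg4 (−0.076 to 0.14) and Psmc3ip (−0.75 to 0.10), none past the threshold in either direction. The cause was not tested. With 3 samples a group, no ratio within a library could go below an exact permutation p of 0.1. Depth limits Psma8, Psmb11, Psmc3ip and Psmg1 to Psmg3, whose counts over all libraries were 8 to 434.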
